A study of Homo sapiens with 6 samples.

Results

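The heat shock proteins and their cochaperones are described here in HK-2, an immortalised cell line from the human kidney cortex that stands for proximal tubule epithelium. The set holds 34 named genes, taken by gene symbol from the deposited tables of 28565 genes: 7 of the HSP70 and HSP110 family, 7 J-domain proteins (HSP40), 3 small heat shock proteins, 4 mitochondrial chaperones, 2 cytosolic HSP90 genes, 6 HSP90 cochaperones, 3 HSP70 cochaperones or ubiquitin ligases and 2 heat shock factors. All 34 were found in both the count table and the FPKM table, and 33 passed the filter on low counts, among 13389 genes tested. The study has 6 libraries, labelled by time in cisplatin, a platinum drug toxic to the kidney tubule: 3 at 0 h and 3 at 24 h. Every library carries the same titled overexpression construct, OE_LncR2, for a long noncoding RNA that was delivered by lipid transfection, so the controls at 0 h carry it too. The design text also names cells with a negative control plasmid, which were not analysed here, so the comparison is of cisplatin times within the construct and not of the construct itself. Nothing in the labels ties the 3 libraries of a time to separate cultures, and the design text names 2 biological replicates, so p-values measure the spread between these libraries only, which may be technical.

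Heat shock proteins are molecular chaperones, which bind unfolded or partly folded proteins and help them fold, refold or be degraded. HSP70 proteins work in cycles of ATP hydrolysis, with J-domain proteins delivering clients and starting the cycle and exchange factors such as the HSP110 and BAG proteins ending it. HSP90 receives clients such as kinases and steroid receptors from HSP70 with the help of its own cochaperones, while small heat shock proteins hold unfolded proteins without using ATP. The transcription factor HSF1 drives many of these genes through heat shock elements, short inverted repeats of the unit GAA and its complement TTC. In the kidney tubule, HSP70 and HSP27 are known as proteins that ischaemic or toxic injury can induce.

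Promoter sequences are given first, for the members with the smallest p-values in each direction that had an entry, and then for the stress-inducible HSP70 genes. The windows are the 250 bases before the RefSeq start of the gene in GRCh38.p14, 5′ to 3′ on the gene's own strand. The heat shock element was searched in a 2-unit form (GAANNTTC or TTCNNGAA) and a 3-unit form (GAANNTTCNNGAA or TTCNNGAANNTTC), which cover both strands. Capitals mark the 3-unit matches or, where a window has none, the 2-unit matches, and overlapping matches run together. HSPB1 and CDC37 had the smallest p-values among members that were higher at 24 h with an entry, and CHORDC1 and BAG3 among those that were lower. HSPB1 (HSP27), at chr7:76302423-76302672 on the plus strand, holds one 2-unit match that begins 182 bases before the start, and CHORDC1, at chr11:90223050-90223299 on the minus strand, holds a run of 3 overlapping 3-unit matches that begins 60 bases before it. CDC37, at chr19:10403543-10403792 on the minus strand, and BAG3, at chr10:119651130-119651379 on the plus strand, hold no match in this window.
HSPB1: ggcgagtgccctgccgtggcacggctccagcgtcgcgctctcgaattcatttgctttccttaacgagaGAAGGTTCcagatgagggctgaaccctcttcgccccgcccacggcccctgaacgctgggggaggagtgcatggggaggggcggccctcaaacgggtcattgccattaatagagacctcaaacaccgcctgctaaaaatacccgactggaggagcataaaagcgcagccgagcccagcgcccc
CDC37: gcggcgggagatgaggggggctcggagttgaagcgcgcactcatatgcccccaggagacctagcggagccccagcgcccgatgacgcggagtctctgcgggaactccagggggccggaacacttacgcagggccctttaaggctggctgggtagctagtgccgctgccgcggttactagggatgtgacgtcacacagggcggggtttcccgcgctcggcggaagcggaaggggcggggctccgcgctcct
CHORDC1: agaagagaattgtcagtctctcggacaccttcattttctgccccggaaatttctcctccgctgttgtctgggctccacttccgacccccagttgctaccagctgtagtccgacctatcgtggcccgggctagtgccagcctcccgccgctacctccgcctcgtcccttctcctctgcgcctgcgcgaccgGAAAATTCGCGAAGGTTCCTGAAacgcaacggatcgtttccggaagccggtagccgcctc
BAG3: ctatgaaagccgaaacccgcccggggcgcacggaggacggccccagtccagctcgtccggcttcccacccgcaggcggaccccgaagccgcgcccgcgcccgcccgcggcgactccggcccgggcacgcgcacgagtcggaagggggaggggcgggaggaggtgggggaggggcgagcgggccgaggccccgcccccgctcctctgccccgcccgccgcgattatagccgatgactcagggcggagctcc

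The stress-inducible HSP70 genes, chosen for display after their values were seen, follow. HSPA6 (HSP70B′), at chr1:161524290-161524539 on the plus strand, has a 3-unit match that begins 74 bases before the start. HSPA1A, at chr6:31815293-31815542, and HSPA1B, at chr6:31827488-31827737, lie on the plus strand of the same chromosome and each hold one 2-unit match, which begins 106 and 105 bases before the start. The windows of HSPA1A and HSPA1B were identical at 235 of 249 aligned bases (94.4%).
HSPA6: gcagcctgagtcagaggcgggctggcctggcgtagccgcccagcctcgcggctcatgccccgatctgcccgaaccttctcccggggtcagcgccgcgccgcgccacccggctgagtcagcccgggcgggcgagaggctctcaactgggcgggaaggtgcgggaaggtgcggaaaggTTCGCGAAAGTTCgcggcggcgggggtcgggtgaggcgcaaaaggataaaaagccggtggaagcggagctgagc
HSPA1A: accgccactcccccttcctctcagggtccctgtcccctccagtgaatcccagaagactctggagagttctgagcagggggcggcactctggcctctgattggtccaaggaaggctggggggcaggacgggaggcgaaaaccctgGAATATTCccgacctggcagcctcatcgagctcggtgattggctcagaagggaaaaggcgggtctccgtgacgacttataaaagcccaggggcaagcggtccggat
HSPA1B: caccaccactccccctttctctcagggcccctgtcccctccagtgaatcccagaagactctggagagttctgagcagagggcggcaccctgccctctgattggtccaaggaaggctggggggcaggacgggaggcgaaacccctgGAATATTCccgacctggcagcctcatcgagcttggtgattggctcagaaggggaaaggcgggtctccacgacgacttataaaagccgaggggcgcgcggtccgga

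RefSeq windows were matched for 30 of the 34 genes, with 43 windows because some genes have several starts. No window was matched for FKBP4, CRYAB, HSF1 and STUB1. A 3-unit match occurred in 7 of the 43 windows (16.3%), against 155 of all 35116 windows of the same length (0.441%). Each of the 7 windows belonged to another gene: CHORDC1, DNAJB6, HSP90AA1, HSP90AB1, HSPA6, HSPA8 and HSPD1. A 2-unit match, which every 3-unit match also contains, occurred in 15 of the 43 windows (34.9%), against 4067 of all windows (11.6%). A match describes letters in the window and does not show binding. A window without a match can still hold an element of other letters, and elements outside the window were not searched. GENCODE 29 has transcripts of HSPB1, CDC37, CHORDC1, BAG3 and HSPA1A that begin upstream of the RefSeq start used here.

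Library totals ran from 5028881 to 5844246 counts at 0 h and from 6022268 to 7248754 counts at 24 h. On the first 2 principal components, which held 39.3% and 27.7% of the variance, 0 h replicate 3 stood apart from the other 0 h libraries, at 1.28 on the first against -23.8 and -24.5. The counts of calls and the values of several members are given with and without it. Of 6 epithelial markers, 5 passed the filter and 0 were called, with a summed level of 178 to 207 FPKM at 0 h and 212 to 263 at 24 h, while CDH1 was nearly absent. The label of proximal tubule origin had weaker support: of 8 markers 7 had a row and 3 passed the filter, the sum was 12.5 to 14.2 FPKM at 0 h and 17.1 to 18.9 at 24 h, and SLC34A1, AQP1 and ANPEP never passed 3 counts in a library. Markers of other cells were low, summing to at most 0.07 FPKM for endothelium, 1.26 for leukocytes, 0.90 for fibroblasts and 2.21 for erythroid cells. In bulk RNA, fewer cells of a type and less RNA per cell cannot be told apart.

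The comparison of 24 h with 0 h asks how the chaperone genes stood after 24 h in cisplatin. No 24 h library without cisplatin was analysed. An effect of the drug therefore cannot be told apart from one of time in culture or time since transfection. None of the 33 tested members was called in either direction by edgeR's quasi-likelihood test (Benjamini-Hochberg adjusted p under 0.05 over all genes tested). Over all genes, 116 were called higher (0.866%) and 278 lower (2.08%). A count of 0 of 33 is near these shares and does not set the members apart from the rest. At an unadjusted p under 0.05, 1 member was higher, HSPB1 (3.03% of members, against 8.22% of all genes), and 5 were lower, CHORDC1, BAG3, DNAJB6, HSPA4L and DNAJB2 (15.2%, against 9.93%). DESeq2 on the same genes called 1 member, HSPB1, as higher and 0 as lower, against 0.866% and 1.87% of all genes.

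The sizes of the differences were small and tightly bounded. The median log2 fold change (24 h over 0 h) was -0.01 over the members and -0.00 over all genes, with 15 members above 0 and 18 below. Single values ran from -0.32 in CHORDC1 to 0.37 in HSPB1. The 95% intervals of all 33 members lay within a log2 change of 1 in either direction, as did those of 11734 of all 13389 genes tested. The outermost bounds of the members were -0.57 and 0.58, which is a fold of 0.676 and 1.50. Under this model and TMM scaling, the interval of every tested member therefore stays within a doubling or a halving. These intervals, like the p-values, measure the spread between these libraries only, which may be technical. Leaving out 0 h replicate 3 called 1 member higher, HSPB1 (with 4.18% of all genes), and 1 lower, BAG3 (with 6.72%), and moved the members' median to 0.08.

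**Figure D1:**
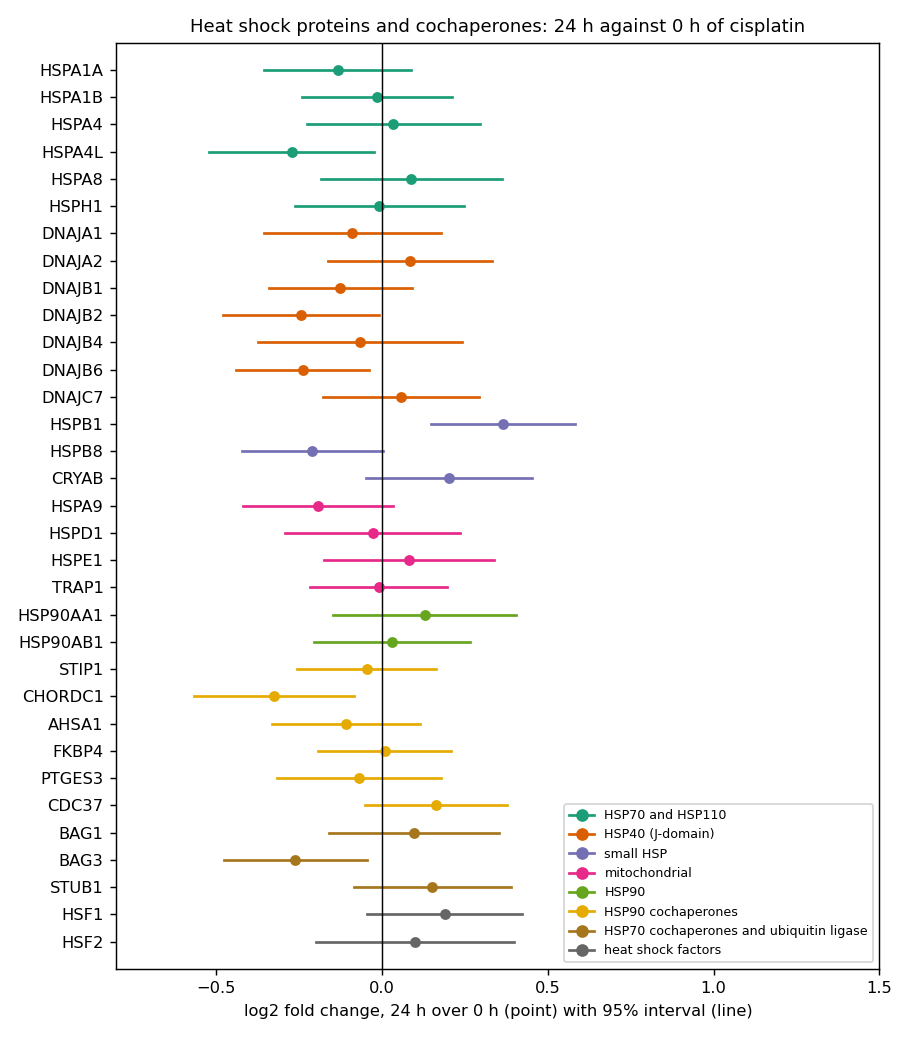
Log2 fold change of each of the 33 tested members, 24 h over 0 h (horizontal axis), from edgeR with 3 libraries per time; points are estimates, lines are 95% intervals, and colours mark the classes. HSPB1 is farthest to the right at 0.37, CHORDC1 is farthest to the left at -0.32, and 6 intervals exclude 0.

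A scaling choice bears on every direction given here. The totals implied by the authors' FPKM rise less from 0 h to 24 h than the counts do, and with those totals the median of all genes moves up by 0.24 on the log2 scale. Under that scaling 5 members were called higher, CDC37, CRYAB, HSF1, HSPB1 and STUB1, with 17.6% of all genes, and 0 lower with 1.46%. The members' median was then 0.23, about that of all genes. Levels in FPKM below carry this shift, so a member that keeps pace with the median gene is higher at 24 h in FPKM.

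HSP70 proteins are the central chaperones of the cytosol, and their genes kept similar levels at both times. HSPA8 (HSC70), the constitutive member, was the most abundant of the set per length, at 355 ± 52.6 FPKM at 0 h and 447 ± 72.6 at 24 h (mean ± SD, n = 3 at each time here and below). In CPM, the counts scaled to library totals by TMM, HSPA8 was 1504, 1611 and 1991 in the 0 h libraries and 1689, 1705 and 2038 in the 24 h libraries. The HSPA8 ranges overlap, and the highest 0 h value is that of replicate 3. Its log2 fold change was 0.09 ± 0.13 (SE), with an edgeR adjusted p of 0.773.

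HSPA1A and HSPA1B, the inducible HSP70 pair that encode almost the same protein, showed no induction past the test. HSPA1A stood at 69.2, 62.7 and 63.9 CPM at 0 h and at 62.0, 56.6 and 60.1 at 24 h, a log2 fold change of -0.13 ± 0.10 (edgeR adjusted p = 0.550). The 24 h libraries of HSPA1A were all just below the 0 h ones, by a gap of less than 1 CPM. HSPA1B stood at 60.2, 57.6 and 58.3 CPM at 0 h and at 60.7, 60.8 and 53.1 at 24 h, with a log2 fold change of -0.01 ± 0.11 (edgeR adjusted p = 0.963).

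Reads of the pair are hard to assign. In GENCODE 29, 63.2% of the 150-base windows of HSPA1A transcripts and 70.0% of those of HSPA1B also occur in another gene, and their longest transcripts are 94.5% identical, against 77.0% for HSPA1A and HSPA6. Because the rule for such reads is not given, the counts of the pair were also added, a choice made after the data were seen. The sum was 124 ± 4.78 CPM at 0 h and 118 ± 4.80 at 24 h, and its log2 fold change was -0.07 ± 0.09, with a 95% interval of -0.28 to 0.13 and an edgeR adjusted p of 0.739. That interval holds under TMM scaling. With totals implied by FPKM, before the shift of the median gene is taken off, the log2 fold change was 0.10 for HSPA1A (edgeR adjusted p = 0.579) and 0.22 for HSPA1B (edgeR adjusted p = 0.219).

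HSPA6, the strictly inducible HSP70B′ with a 3-unit heat shock element, stayed at the detection limit. Its counts in replicates 1 to 3 were 3, 2 and 3 both at 0 h and at 24 h, which is 0.14, 0.09 and 0.13 FPKM and then 0.13, 0.08 and 0.12. All 6 values lie at or under 3 counts, so no fold change is given. Of the 150-base windows of HSPA6, 15.2% also occur in another gene, the pseudogene HSPA7. Within the HSP70 and HSP110 family, FPKM ran from that level to that of HSPA8.

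The HSP110 proteins act as exchange factors for HSP70. HSPA4L, the least abundant tested member of the family per length at 3.76 ± 0.458 FPKM at 0 h, had 64.6, 76.8 and 82.1 CPM at 0 h and 56.4, 61.7 and 67.1 at 24 h, with a log2 fold change of -0.27 ± 0.12 (edgeR adjusted p = 0.228). Its ranges overlap, since 24 h replicate 3 was above 0 h replicate 1. HSPH1 (HSP105) was at 364 ± 57.3 CPM and then 362 ± 35.0 (log2 fold change -0.01 ± 0.12), and HSPA4 at 198 ± 34 and then 202 ± 20.6 CPM (0.03 ± 0.12). Both had their highest 0 h value in replicate 3.

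J-domain proteins stimulate the ATPase of HSP70 and choose its clients. Of 7 members, 0 were called, 2 were above 0 and 5 below, and the median log2 fold change was -0.09. DNAJB6, which suppresses the aggregation of polyglutamine proteins, had 139, 142 and 147 CPM at 0 h and 117, 119 and 128 at 24 h. All DNAJB6 libraries at 24 h lay below all those at 0 h, and the log2 fold change was -0.24 ± 0.09 (edgeR adjusted p = 0.190). DNAJB2, a J-domain protein enriched in neurons, had 59.4, 62.1 and 62.7 CPM at 0 h and 47.5, 57.7 and 50.2 at 24 h, again without overlap (-0.24 ± 0.11, edgeR adjusted p = 0.255). In FPKM the DNAJB6 and DNAJB2 groups overlap, at 24.0 ± 0.628 and then 24.0 ± 2.59 for DNAJB6 and 10.9 ± 0.356 and then 10.9 ± 1.60 for DNAJB2. That is level in absolute FPKM and below the shift of the median gene, and the log2 fold change of DNAJB6 with the totals implied by FPKM was 0.00 before that shift is taken off.

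The other J-domain genes lay closer to 0. DNAJA1, a main partner of HSC70 and the most abundant of the J-domain genes at 78.9 ± 14.3 FPKM at 0 h, had 287, 309 and 403 CPM at 0 h and 285, 315 and 340 at 24 h. Here 0 h replicate 3 was the highest of the 6 libraries, and the log2 fold change was -0.09 ± 0.13 (edgeR adjusted p = 0.770). DNAJB1, the classic HSP40 and an HSF1 target, was at 155 ± 5.43 CPM and then 142 ± 14.3 (-0.13 ± 0.10, edgeR adjusted p = 0.563). DNAJA2, DNAJB4 and DNAJC7 had log2 fold changes of 0.09 ± 0.12, -0.06 ± 0.14 and 0.06 ± 0.11.

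The small heat shock proteins were the class with the widest spread of direction. HSPB1, which encodes HSP27, a holding chaperone that also binds actin, had 392, 395 and 374 CPM at 0 h and 488, 548 and 460 at 24 h. Every 24 h library was above every 0 h library. The gene lies at chr7:76302544-76304295 on the plus strand (ENSG00000106211.8, GRCh38). Its mean went from 387 ± 11.1 to 499 ± 44.8 CPM, a log2 fold change of 0.37 ± 0.10 (fold 1.29, 95% interval 1.11 to 1.50), and the edgeR adjusted p was 0.0677, above the threshold. In FPKM the libraries were at 207, 212 and 198 and then at 283, 352 and 303. By mean FPKM, HSPB1 was second only to HSPA8 among the members at both times. At 0 h that rank was narrow, at 206 ± 7.03 against 204 ± 22.0 for HSP90AB1, which was higher in replicate 3 (227). HSPB1 was above 0 in all 14 alternatives and called in 8 of them, with adjusted p from 0.003 to 0.312. Its value without 0 h replicate 3 was 0.35 (edgeR adjusted p = 0.028). The share of all genes called higher was much wider in some of these 8: 17.6% with totals implied by FPKM, 12.4% and 12.2% with limma on log2(FPKM + 1) and log2(FPKM + 0.1), and 5.52% with the replicate number as a block, which also called 4 other members lower with 7.16% of all genes. It was 4.18% without 0 h replicate 3, 2.28% without both libraries numbered 3, 1.21% when low counts were left unfiltered, and 0.866% with DESeq2.

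HSPB8 (HSP22), which works with BAG3 in selective autophagy, went the other way. It had 147, 145 and 124 CPM at 0 h and 121, 119 and 119 at 24 h. The groups are separated only by the gap between 0 h replicate 3 and 24 h replicate 1, and the log2 fold change was -0.21 ± 0.10 (edgeR adjusted p = 0.283). CRYAB (αB-crystallin) had 32.1, 32.3 and 32.1 CPM at 0 h and 39.9, 34.4 and 36.9 at 24 h, without overlap, for a log2 fold change of 0.20 ± 0.12 (edgeR adjusted p = 0.388). Exons of CRYAB overlap those of HSPB2 on the opposite strand, and the use of strand in counting is not given. Exons of AHSA1, CHORDC1, DNAJB1, DNAJC7, FKBP4, HSF1, HSP90AA1, HSPA4L, HSPD1, HSPE1, STUB1 and TRAP1 also overlap exons on the opposite strand. The ratio of HSPB1 to HSPB8 in FPKM, which does not depend on library scaling, was 5.40, 5.54 and 6.15 at 0 h and 8.18, 9.32 and 7.87 at 24 h. These 3 against 3 values do not overlap, at the smallest p that an exact permutation test of this design can give (two-sided p = 0.1, adjusted p = 0.375 over 5 ratios chosen after the values were seen). The ratio of HSPB1 to HSPA8 was 0.663, 0.625 and 0.479 at 0 h and 0.736, 0.818 and 0.575 at 24 h. Those values overlap (exact permutation test, two-sided p = 0.3).

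By groups that do not overlap in CPM, HSPB1 and CRYAB were the 2 members higher at 24 h, against 10.9% of all genes. HSPA1A, DNAJB2, DNAJB6, HSPB8, CHORDC1 and BAG3 were the 6 lower, or 18.2% of the members against 11.7% of all genes. In FPKM, where the median gene is shifted up, 10 members were higher without overlap, against 33.3% of all genes, and 0 were lower, against 3.01%.

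**Figure D2:**
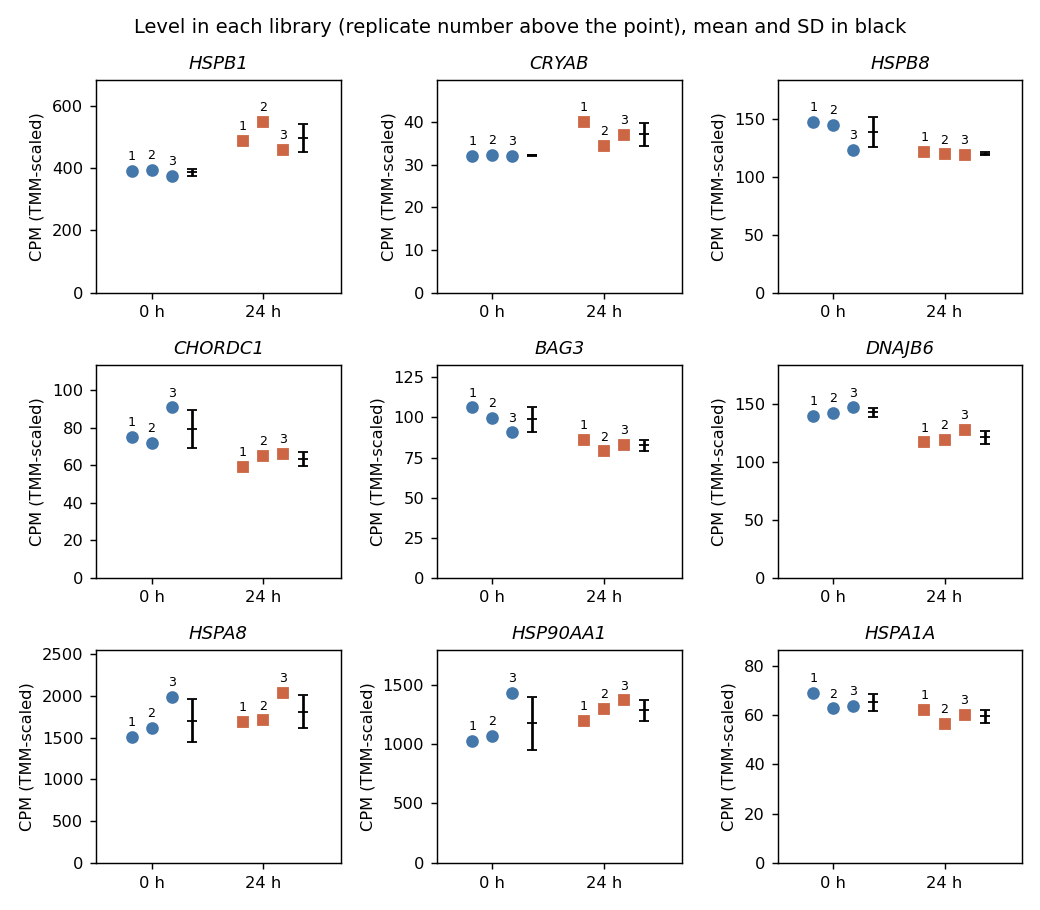
CPM (vertical axis, from 0) of 9 members in each library at 0 h (circles) and 24 h (squares), with the replicate number above each point and the mean and SD in black. HSPB1 and CRYAB do not overlap and are higher at 24 h, CHORDC1, BAG3, DNAJB6, HSPB8 and HSPA1A do not overlap and are lower, and HSPA8 and HSP90AA1 overlap with 0 h replicate 3 as the highest 0 h library.

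The mitochondrial chaperones fold imported proteins, with HSPA9 (mortalin) pulling them in, HSPD1 (HSP60) and HSPE1 (HSP10) forming the folding chamber and its lid, and TRAP1 acting as the HSP90 of the organelle. None of the 4 was called. HSPA9 was at 441, 467 and 538 CPM at 0 h and at 394, 423 and 448 at 24 h, with overlap and a log2 fold change of -0.19 ± 0.11 (edgeR adjusted p = 0.363), or -0.10 without 0 h replicate 3 (edgeR adjusted p = 0.597). HSPD1 was at 660, 698 and 911 CPM and then at 693, 746 and 786, and the ranges overlap, with 0 h replicate 3 above all 24 h libraries. The log2 fold change of HSPD1 was -0.03 ± 0.12, of HSPE1 0.08 ± 0.12 and of TRAP1 -0.01 ± 0.10. HSPD1 and HSPE1, neighbouring genes on opposite strands with overlapping exons, stayed in a ratio of 1.26 ± 0.0923 in FPKM at 0 h and 1.17 ± 0.0452 at 24 h.

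The cytosolic HSP90 genes, which encode the chaperone of kinases and steroid receptors, were among the most abundant members. HSP90AB1, the constitutive form, was at 204 ± 22.0 FPKM and then 247 ± 23.2, and HSP90AA1, the inducible form, at 164 ± 30.9 and then 213 ± 28.1. HSP90AA1 had 1025, 1067 and 1433 CPM at 0 h and 1191, 1297 and 1367 at 24 h. Its 0 h replicate 3 was the highest of all 6 libraries, while the other 0 h libraries were the lowest of all. The log2 fold change of HSP90AA1 was 0.13 ± 0.13 (edgeR adjusted p = 0.658) with all libraries and 0.30 without 0 h replicate 3 (edgeR adjusted p = 0.078). HSP90AB1 had a log2 fold change of 0.03 ± 0.11, and the ratio of HSP90AA1 to HSP90AB1 in FPKM was 0.705, 0.822 and 0.879 at 0 h and 0.825, 0.862 and 0.894 at 24 h, which overlap (exact permutation test, two-sided p = 0.4).

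Among the HSP90 cochaperones, CHORDC1 (morgana), a zinc-binding partner of HSP90, had the lowest fold change of all members. Its gene lies at chr11:90201160-90223364 on the minus strand (ENSG00000110172.11). CHORDC1 stood at 75.2, 72.1 and 90.9 CPM at 0 h and at 59.2, 64.8 and 66.2 at 24 h, with no overlap. The log2 fold change was -0.32 ± 0.11 (fold 0.799, 95% interval 0.676 to 0.944), with an edgeR adjusted p of 0.138. Without 0 h replicate 3, its highest library, the value was -0.21 (edgeR adjusted p = 0.249).

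CDC37, which loads kinases onto HSP90, was at 187, 171 and 207 CPM at 0 h and at 204, 217 and 211 at 24 h, with overlap (log2 fold change 0.16 ± 0.10, edgeR adjusted p = 0.420). The other cochaperones lay between -0.11 and 0.01: AHSA1, which activates the HSP90 ATPase, at -0.11 ± 0.11, PTGES3 (p23), which stabilises the closed HSP90 dimer, at -0.07 ± 0.12, STIP1 (HOP), which links HSP70 to HSP90, at -0.05 ± 0.10, and FKBP4 (FKBP52), a steroid receptor partner, at 0.01 ± 0.09. The abundance of these cochaperones differed widely at 0 h, from 6.60 ± 0.810 FPKM in CHORDC1 to 97.6 ± 13.9 in PTGES3.

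BAG3, which links HSP70 and small heat shock proteins to autophagy, was the lower-going member of the HSP70 cochaperones. It had 106, 100.0 and 90.7 CPM at 0 h and 86.1, 78.9 and 82.8 at 24 h, so the groups do not overlap. The gene lies at chr10:119651370-119677819 on the plus strand (ENSG00000151929.9). BAG3 had a log2 fold change of -0.26 ± 0.10 (edgeR adjusted p = 0.182), and without 0 h replicate 3, its lowest 0 h library, -0.32 (edgeR adjusted p = 0.046). BAG1, a nucleotide exchange factor of HSP70, was at 30.0 ± 0.651 and then 32.1 ± 2.06 CPM (0.10 ± 0.12), and STUB1 (CHIP), the ubiquitin ligase that marks chaperone clients for degradation, at 52.7 ± 5.52 and then 58.7 ± 1.72 (0.15 ± 0.11, edgeR adjusted p = 0.513). Without 0 h replicate 3 the STUB1 value was 0.25 (edgeR adjusted p = 0.195).

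The heat shock factors themselves were expressed at both times. HSF1, the main stress-responsive factor, had 91.5, 102 and 85.8 CPM at 0 h and 111, 114 and 93.7 at 24 h. The HSF1 ranges overlap through replicate 3 at 24 h, and the log2 fold change was 0.19 ± 0.11 (edgeR adjusted p = 0.386). HSF2 was lower, at 28.3 ± 3.80 and then 30.4 ± 3.62 CPM, with a log2 fold change of 0.10 ± 0.14. Messenger levels do not show the activity of either factor, which is set largely on the protein.

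The genes with a 3-unit heat shock element in their window can be set beside the others as a description. The 6 that were tested, CHORDC1, DNAJB6, HSP90AA1, HSP90AB1, HSPA8 and HSPD1, had a median log2 fold change of 0.00 and a range of -0.32 to 0.13, with 0 called. The 23 tested genes with a window but no such match had a median of -0.05 and a range of -0.27 to 0.37, also with 0 called. HSPB1, the member with the largest fold change, holds only the 2-unit match printed above, and BAG3 holds none in its window.

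Levels add across genes in FPKM, which is per length. All 34 genes together held 2016 ± 197 FPKM at 0 h and 2477 ± 285 at 24 h, or 0.605% ± 0.0260 and 0.654% ± 0.0553 of the FPKM of all genes. Small heat shock proteins summed to 253, 258 and 238 FPKM at 0 h and to 328, 399 and 352 at 24 h, without overlap, and HSPB1 made up most of that sum. With 3 libraries against 3 the exact permutation test cannot go below p = 0.1, which the small heat shock proteins, the HSP70 cochaperones and the heat shock factors reached. The adjusted p over 8 classes was 0.229 for each of these 3. These sums carry the upward shift of the median gene in FPKM.

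Shares among the members do not depend on library scaling. The J-domain genes held 9.81%, 9.83% and 9.80% of the members' FPKM at 0 h and 8.70%, 8.83% and 9.18% at 24 h, a gap wider than the spread within either time. Mitochondrial chaperones held 19.6% ± 0.843 and then 18.6% ± 0.395, and HSP90 cochaperones 14.1% ± 0.314 and then 13.4% ± 0.0576. These 3 shares did not overlap between times (exact permutation test, two-sided p = 0.1, the smallest possible, and adjusted p = 0.267 over 8 classes). The shares of the 8 classes make up the whole, so they are not independent, and a larger share of a class lowers the others. The mean summed FPKM of these 3 classes was higher at 24 h, by fold 1.12, 1.17 and 1.17, with the upward shift of the median gene included. HSP70 and HSP110 held 22.1% ± 0.916 and then 22.3% ± 1.27, HSP90 18.3% ± 0.846 and then 18.6% ± 0.140, and small heat shock proteins 12.5% ± 1.62 and then 14.6% ± 1.49. The shares of these last 3 classes overlapped between times. The share of the HSP70 cochaperones, 2.21% ± 0.199 and then 2.05% ± 0.105, also overlapped. So did that of the heat shock factors, 1.47% ± 0.194 and then 1.59% ± 0.179.

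**Figure D3:**
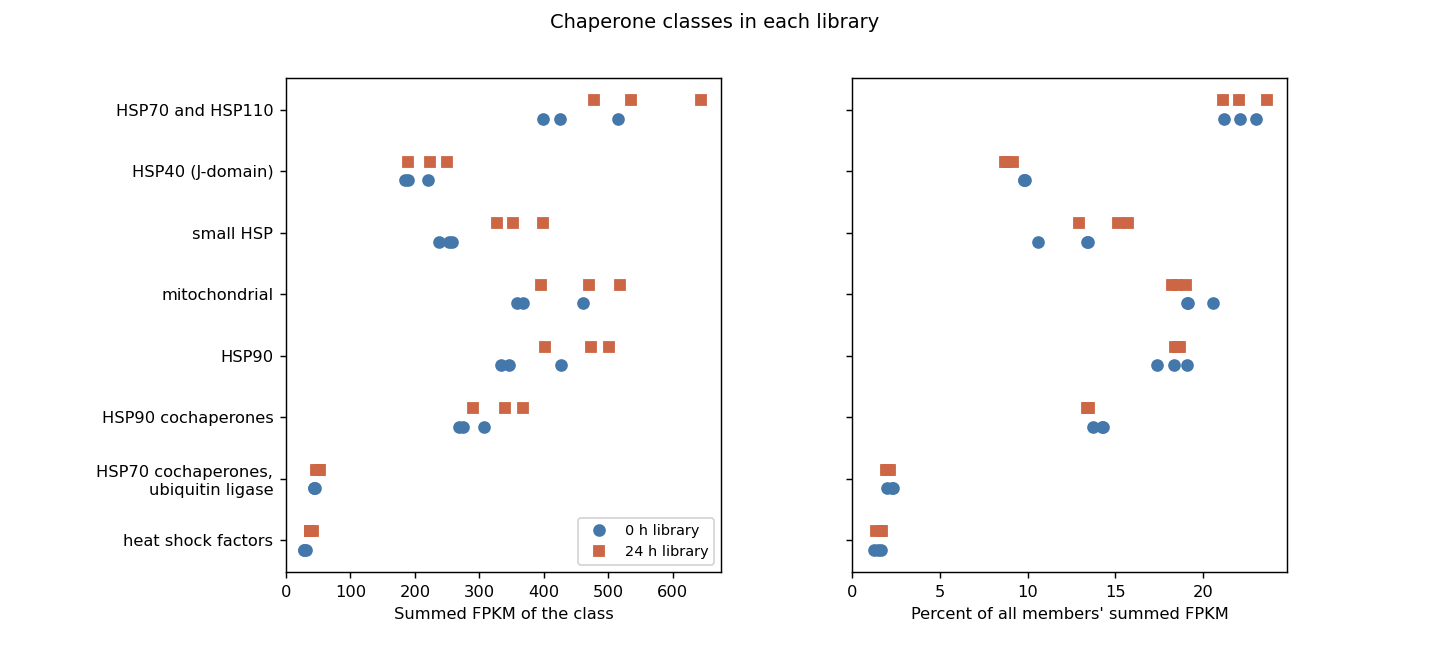
Summed FPKM of each chaperone class (left) and its percent of the FPKM of all 34 members (right), 1 point per library at 0 h (circles) and 24 h (squares). Small heat shock protein sums do not overlap between times, and the J-domain share lies near 9.8% at 0 h and between 8.70% and 9.18% at 24 h.

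One 0 h library stood apart from its group in most members. Relative to the mean of 0 h replicates 1 and 2, replicate 3 was higher in most members, with a median log2 difference of 0.21 against -0.01 over all genes tested. It was above both other 0 h libraries in 22 of 33 members (66.7%, against 37.7% of all genes) and below both in 5 (15.2%, against 39.9%). The largest differences were 0.45 in HSP90AA1, 0.43 in DNAJA1, 0.42 in HSPD1, 0.41 in HSPA4, 0.38 in HSPH1, 0.37 in HSPE1 and 0.35 in HSPA8. HSPB8 (-0.24), BAG3 (-0.18), HSF1 (-0.18) and HSPB1 (-0.07) lay below instead. So did DNAJB1 (-0.06), HSPA1A (-0.05), TRAP1 (-0.04) and HSPA1B (-0.02), while CRYAB and BAG1 were level (both -0.00). The differences in HSP90AA1, DNAJA1, HSPD1, HSPA4, HSPH1 (0.376) and HSPE1 (0.374) exceed the largest difference between the times, 0.366 in HSPB1. Without this library the edgeR log2 fold changes were 0.08 in DNAJA1, 0.13 in HSPD1, 0.19 in HSPA4 and 0.13 in HSPH1. They were 0.22 in HSPE1 and 0.22 in HSPA8, and none of these members was called. HSPB8 moved to -0.28 (edgeR adjusted p = 0.067). What sets this library apart was not tested.

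**Figure D4:**
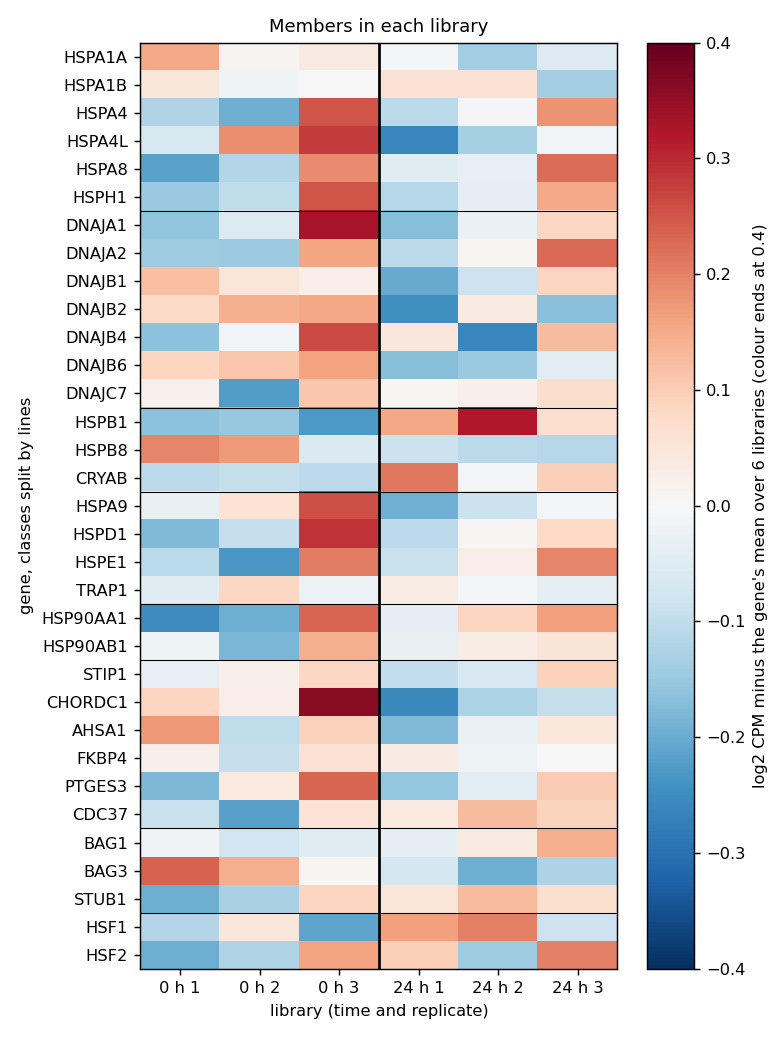
Log2 CPM of the 33 tested members (rows, classes split by lines) in the 6 libraries (columns), minus each gene's mean over the 6; colour ends at 0.4 in either direction. The column of 0 h replicate 3 is above the gene's mean in most rows of the HSP70, J-domain, mitochondrial and HSP90 classes, and HSPB1 is below it at 0 h and above it at 24 h in every library.

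The wider chaperone network, in 9 lists with 98 tested genes, gave 1 call, 1 of 98 higher and 0 lower, against 0.866% and 2.08% of all genes. That count is near the background. DNAJC30, a mitochondrial J-domain protein, rose from 7.38, 6.08 and 6.18 CPM at 0 h to 10.6, 13.7 and 10.4 at 24 h. The groups do not overlap, and the log2 fold change was 0.83 ± 0.20 (edgeR adjusted p = 0.0370). It had 31 to 37 counts at 0 h and 64 to 95 at 24 h, and the call was lost with DESeq2 (adjusted p = 0.0651) and when 0 h replicate 2 (edgeR adjusted p = 0.176), 24 h replicate 1 (0.0555), 24 h replicate 2 (0.225) or 24 h replicate 3 (0.0617) was left out.

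The other lists had 0 calls each. Over all 98 genes the median log2 fold change was 0.04, with 58 above 0 and 40 below. TRiC and prefoldin, which fold actin and tubulin, had 11 of 14 above 0 and a median of 0.07, and PFDN1 had the smallest p (0.21 ± 0.10, edgeR adjusted p = 0.287). Chaperones of the endoplasmic reticulum, whose induction marks the unfolded protein response, had 8 of 17 above 0 and a median of -0.01, with HYOU1 at -0.25 ± 0.11 (edgeR adjusted p = 0.228). Mitochondrial proteases had a median of 0.02 over 8 genes, with HTRA2, a serine protease of the intermembrane space, at 0.41 ± 0.13 (edgeR adjusted p = 0.103). The 27 other J-domain genes, DNAJC30 included, had a median of 0.07.

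In 4 further lists the gene with the smallest p also missed the threshold. HSPA13, an HSP70 of the microsomes, was at -0.34 ± 0.15 (edgeR adjusted p = 0.246) among 5 further HSP70 genes with a median of -0.16. HSPB11, now known as a part of intraflagellar transport, was at 0.38 ± 0.13 (edgeR adjusted p = 0.120) among 2 further small heat shock genes tested, itself included. FNIP1, a folliculin partner that slows the HSP90 ATPase, was at -0.26 ± 0.12 (edgeR adjusted p = 0.260) among 13 HSP90 cochaperones with a median of 0.01. GRPEL2, a mitochondrial exchange factor, was at -0.23 ± 0.13 (edgeR adjusted p = 0.389) among 7 exchange factors with a median of 0.12.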

How the data were processed

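RNA-seq of 6 HK-2 libraries was analysed, 3 at each of 2 times in cisplatin, 0 h and 24 h. Per the labels' protocols, libraries were directional, made from RNA depleted of ribosomal RNA, and read from both ends. The deposited counts are whole reads per gene, not normalized, and the deposited FPKM values are the authors' own, per length and per library. The submitters' processing notes name TopHat2, edgeR and GRCh38, while for the read counter, its use of strand and its rule for reads with several matches the entry is "not given in the sources used here". No sample was left out of the main comparison, and 0 columns of other samples were present.

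The 24 h libraries were compared with the 0 h libraries in edgeR 4.0.16 (R 4.3.3) by the quasi-likelihood test. Libraries were scaled by TMM, genes were filtered by filterByExpr at its defaults, no covariate was used, and Benjamini-Hochberg adjustment ran over 13389 genes. CPM use TMM-scaled totals. FPKM sums and ratios were compared by exact permutation tests over libraries (SciPy 1.17.1). Alternatives were RLE scaling, totals implied by FPKM, no filter, DESeq2 1.42.0, limma 3.58.1 on log2(FPKM + 1) and log2(FPKM + 0.1), a block for the replicate number, and libraries left out, 14 in all. The scripts were tested on simulated counts. Reads carry no molecular identifiers, so errors cover counting error and the spread between libraries. Replicates of a time differed beyond sampling noise (chi-square per degree of freedom from 3.90 to 10.6).

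Gene positions and shared 150-base windows come from GENCODE 29 (GRCh38), to which all 34 members matched, and promoter windows from RefSeq (GRCh38.p14). All members are named, and from the wider lists every called gene and the tested gene with the smallest p, except in 1 list, whose gene is not reported here. The members and lists were chosen with earlier results of these data known. HSPB3, HSPB9, LRP2, KDR, PTPRC, CD3E and HBB were not analysed here.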

Additional observations from a re-analysis of the deposited data

How the results depend on the processing

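Values for members are log2 fold changes, relative to the median gene where a scaling moved it by over 0.1, and calls are at an adjusted p under 0.05. The count of members called higher was 0 and became 5 with totals implied by FPKM, 1 with no filter on low counts, 1 with DESeq2, 4 with limma on log2(FPKM + 1), 5 with limma on log2(FPKM + 0.1), 1 with the replicate number as a block and 1 without both libraries numbered 3. HSPB1 was among them each time. The count called lower was 0 and became 4 with the block (BAG3, CHORDC1, DNAJB6 and HSPA4L at adjusted p of 0.035, 0.018, 0.033 and 0.036, against 7.16% of all genes called lower and 5.52% higher). Leaving out 1 library gave 0 to 1 members called higher and 0 to 1 lower, both calls without 0 h replicate 3. All genes called higher and lower numbered 116 and 278, and became 2354 higher with totals implied by FPKM (92.3% of calls, against 29.4%), 1657 and 138 with limma at a pseudocount of 1, 1632 and 136 at 0.1, 345 higher with no filter (46.6% of calls), 739 and 959 with the block (43.5% of calls), 306 and 539 without both libraries numbered 3, and 21 to 574 and 92 to 923 when 1 library was left out. Same-numbered libraries correlated by 0.24, -0.02 and 0.42 in their deviations from the group means, so the numbers were not taken to pair them. Of 464 values of single members, 401 kept direction and side of the threshold, 24 passed the threshold and 39 changed sign, in 15 members whose values were at most 0.09 in size. With no filter HSPA1B, HSPH1, HSPD1, TRAP1 and STIP1 became 0.035, 0.039, 0.019, 0.040 and 0.0036. With limma at 1 the same genes became 0.027, 0.051, 0.041, 0.037 and 0.0068, and HSPH1 became 0.0046 at 0.1. Without both libraries numbered 3, HSPA1B, HSPH1, DNAJA1 and HSPD1 became 0.043, 0.048, 0.0073 and 0.083. Leaving out 1 library gave ranges of -0.044 to 0.044 in HSPA1B, -0.056 to 0.19 in HSPA4, -0.011 to 0.22 in HSPA8, -0.095 to 0.13 in HSPH1, -0.18 to 0.075 in DNAJA1, -0.020 to 0.20 in DNAJA2, -0.16 to 0.068 in DNAJB4, -0.036 to 0.13 in DNAJC7, -0.12 to 0.13 in HSPD1, -0.014 to 0.22 in HSPE1, -0.034 to 0.027 in TRAP1, -0.052 to 0.12 in HSP90AB1, -0.038 to 0.044 in FKBP4 and -0.17 to 0.042 in PTGES3. The difference in summed FPKM of the J-domain genes was 23.2 and became -3.96 with each library's FPKM rescaled to the same sum. The difference in the share of HSP70 and HSP110 was 0.187 percentage points and became -0.328 without HSPA8 and HSP90AB1, with a range of -0.497 to 0.760 when 1 library was left out, and that of HSP90 ranged from -0.151 to 0.690. The cause of these changes was not tested. HSPA6, with 2 to 3 counts per library, was the only member that depth kept from the main test.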
